A study of Rattus norvegicus with 180 samples.

Results

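The pituitary gland and the thalamus were compared for every miRNA of the array in 3 rats perfused with saline, numbered 4, 5 and 6, by 6 of the 180 arrays of a rat miRNA atlas. The arrays were chosen by organ and animal number as the labels give them, with no use of the measured values. All 3 animals were male Sprague-Dawley rats of 10 weeks of age, and both organs of an animal were collected after the same perfusion. One array of total RNA was hybridised per organ and rat, so each organ was measured in 3 separate rats. Pieces of thalamus were cut out by eye from a sagittal section of the cerebrum, and the lobes of the pituitary gland carry no separate label. The label of 1 pituitary array was not uniform, since its title names rat 5 and its source field rat 6. The title was used, and results without that array are given below.

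Both tissues release peptides and transmitters by regulated exocytosis, but their cells have different origins. The anterior lobe of the pituitary gland is an epithelium of hormone-secreting cells that arises from the oral ectoderm, whereas the posterior lobe holds glia and the axon endings of hypothalamic neurons. The thalamus is a relay of neurons, astrocytes and myelinating oligodendrocytes. A miRNA guides an Argonaute protein to messenger RNAs that pair with its seed, bases 2 to 8 from its 5′ end, so that members of one seed family share many targets. In bulk tissue, fewer cells of a type and less RNA per cell cannot be told apart.

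The sequences of the miRNAs that carry the comparison are printed below, 5′ to 3′, with the seed in capitals. They are RefSeq mature sequences (GRCr8), which were matched by name for 177 of the 212 miRNAs tested. The first set was higher in pituitary gland than in thalamus. miR-7a and miR-7b share their seed and differ by 1 substitution (A10U, counted from the 5′ end), and miR-200c and miR-141 are the pair of a hairpin cluster that carry different seeds of the miR-200 family.
rno-miR-375: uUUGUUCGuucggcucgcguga
rno-miR-7a: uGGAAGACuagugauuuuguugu
rno-miR-7b: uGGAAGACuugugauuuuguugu
rno-miR-551b: gGCGACCCauacuugguuucagu
rno-miR-200c: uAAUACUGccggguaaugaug
rno-miR-141: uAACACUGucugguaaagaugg
rno-miR-183: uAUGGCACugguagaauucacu
rno-miR-96: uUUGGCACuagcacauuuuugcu
The second set was higher in thalamus than in pituitary gland, and it holds both arms of the miR-9 hairpin and both arms of the miR-219-2 hairpin, followed by 3 further miRNAs of nervous tissue.
rno-miR-9: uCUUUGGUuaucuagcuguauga
rno-miR-9*: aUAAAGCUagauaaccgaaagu
rno-miR-219-5p: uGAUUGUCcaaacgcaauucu
rno-miR-219-2-3p: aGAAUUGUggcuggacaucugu
rno-miR-338: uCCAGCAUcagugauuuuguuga
rno-miR-128: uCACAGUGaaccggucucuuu
rno-miR-137: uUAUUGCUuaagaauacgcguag
In GRCr8, miR-375 lies on chromosome 9 at chr9:83906591-83906612 (minus strand) and miR-7b on the same chromosome at chr9:1167464-1167486 (plus strand). miR-7a is encoded by a locus on chromosome 1 at chr1:142215818-142215840 and by another on chromosome 17 at chr17:6278710-6278732, both on the plus strand. miR-551b lies at chr2:115917713-115917735 (minus strand), and miR-200c and miR-141 are neighbours on the minus strand of chromosome 4, at chr4:159209969-159209989 and chr4:159209540-159209561.

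Signals are spot intensities of the scanner software, averaged per miRNA and scaled to a common 75th percentile over 37 miRNAs found on each of the 180 arrays; values below a floor of 10.8 were set to it before log2. Differences are log2 pituitary gland minus thalamus from a paired limma fit with rat as a block, and a miRNA was called at a Benjamini-Hochberg adjusted p under 0.05 over all miRNAs tested. The pituitary arrays detected 229, 244 and 190 miRNAs and the thalamus arrays 202, 217 and 198. Of the 717 miRNAs of the design, 212 were detected on all 3 arrays of at least 1 organ and were tested. No miRNA spot was saturated. Correlations of log2 signals over these 212 ran from 0.986 to 0.994 among pituitary arrays, from 0.980 to 0.993 among thalamus arrays and from 0.536 to 0.572 between the organs. As 3 arrays per organ limit the precision, the median standard error of a difference was 0.15. The standard errors given here are moderated, so they borrow variance from other miRNAs and are not the spread of the 3 rats alone.

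The organs differed for most miRNAs tested. Of the 212, 54 were called higher in pituitary gland (25.5%) and 86 higher in thalamus (40.6%), and 72 were not called. The median difference over all 212 was -0.18, and 35 calls in the direction of the pituitary gland and 54 in that of the thalamus were larger than 1 on the log2 scale. All 54 pituitary calls and 84 of the 86 thalamus calls had no overlap between the 3 arrays of each organ. This split depends on the scaling. It was 68 and 61 with the percentile over all miRNAs of the design, 70 and 71 with the percentile over miRNAs detected on the 6 arrays, and 63 and 62 with the authors' normalized table, whose median differences were 0.07, 0.05 and 0.11. These scalings moved the median by 0.25, 0.23 and 0.29, and a call that was lost with them is named beside its value. None of the 140 miRNAs called here took the opposite sign as a call in any of the 21 alternative analyses.

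The plot of mean signals of one organ against the other shows the calls on both sides of the line of equal signal, with the largest differences where one organ is near the floor.

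**Figure D1:**
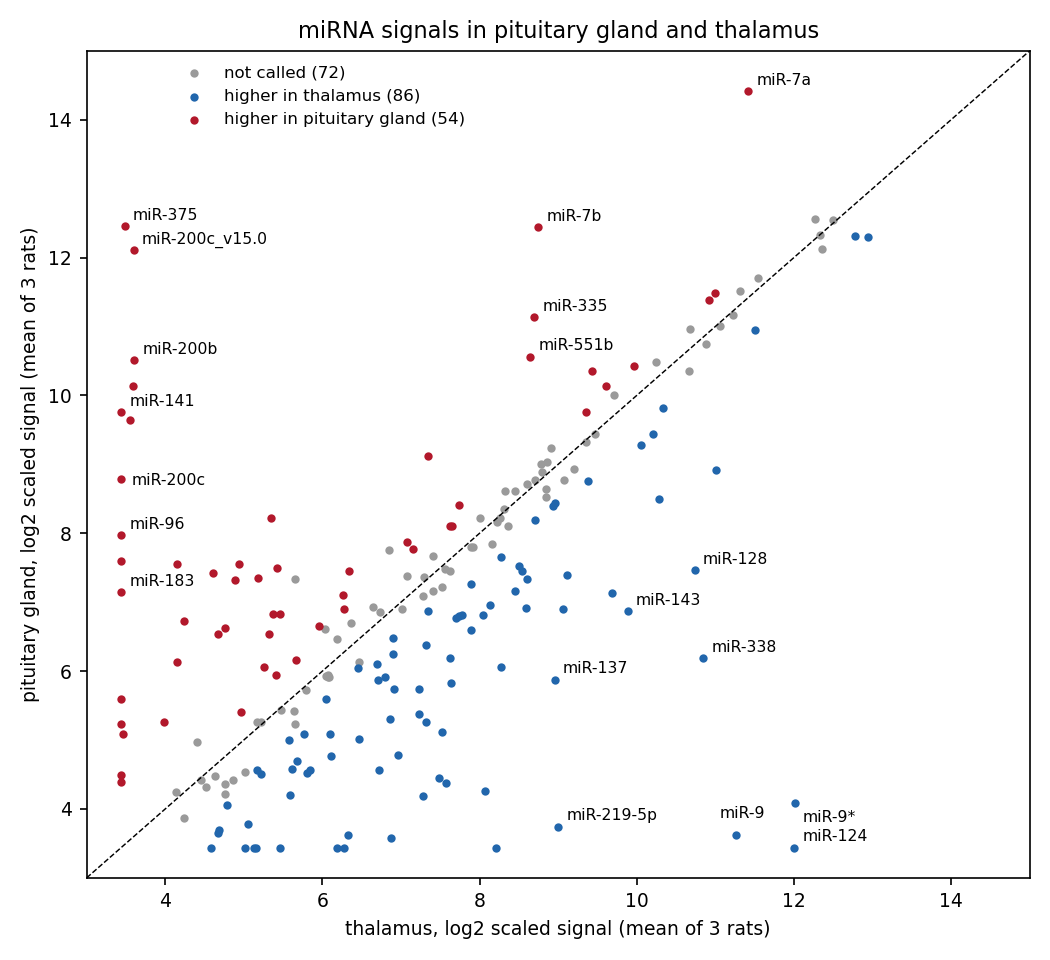
Mean log2 scaled signal of the 3 rats in thalamus (horizontal axis) and in pituitary gland (vertical axis) for the 212 miRNAs tested, with the line of equal signal dashed. Red points are the 54 miRNAs called higher in pituitary gland and blue points the 86 called higher in thalamus; miR-375 and the miR-200 family stand at or near the floor of the thalamus axis, and miR-124 and miR-9 near that of the pituitary axis.

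The miRNAs of the endocrine pituitary were high in the gland. miR-375, which is known from pancreatic islets and other endocrine cells, read 4953, 5953 and 6070.2 in the pituitary glands of rats 4, 5 and 6 and 11.9, 7.20 and 3.79 in their thalami (values are given in this order throughout). Each pituitary array lay far above each thalamus array, with a difference of 8.98 ± 0.15 (SE, n = 3, adjusted p = 7.6e-09). It was detected on 1 of the 3 thalamus arrays, so the size of the difference depends on the floor.

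miR-7a, which is known from endocrine and neuroendocrine cells, was bright in both organs. It read 20572, 22939 and 22009 there and 3306, 2586 and 2396 in thalamus, a difference of 3.00 ± 0.16 (SE, n = 3, adjusted p = 2.2e-06), or 7.97-fold. The differences of the 3 rats were 2.64, 3.15 and 3.20 log2 units. An exact permutation test that flips the sign of each rat's difference gave a two-sided p of 0.25, which is the smallest that 3 pairs allow.

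miR-7b, the relative that differs from miR-7a by A10U, read 4944, 5972 and 5827 in pituitary gland and 491, 386 and 416 in thalamus, with a difference of 3.70 ± 0.16 (SE, n = 3, adjusted p = 8.5e-07). Binding of miR-7a to the miR-7b probes, or the reverse, was not tested. The passenger strands of the miR-7a hairpins differ in sequence and have probes of their own. miR-7a-2*, from the chromosome 1 hairpin, read 173, 198 and 194 in pituitary gland and 35.1, 31.0 and 26.4 in thalamus and was called at a difference of 2.62 ± 0.16 (SE, n = 3, adjusted p = 3.8e-06). miR-7a-1*, from the chromosome 17 hairpin, was detected on 1 array of each organ and was not tested. Its signals of 13.3, 18.0 and 13.1 in pituitary gland lay below those of 20.6, 23.9 and 26.1 in thalamus, but most of these values were not well above background.

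miR-551b, whose seed no other of the matched miRNAs shares, read 1573, 1394 and 1579.8 in pituitary gland and 436, 422 and 347 in thalamus. Its difference was 1.92 ± 0.15 (SE, n = 3, adjusted p = 1.5e-05), or 3.78-fold, and the groups did not overlap. Of the 8 arms listed for the endocrine pituitary, 5 were tested and all 5 were called higher in the gland, beside 25.5% of all tested, with a median difference of 3.00 against -0.18 over all tested. miR-375 passed the filter through the pituitary gland alone, and the other 4 were detected on all 6 arrays. The list was chosen with earlier results of these data known. From these same arrays, the paper names the pituitary gland among the organs with high miR-7a and miR-551b. The count of calls was thus partly fixed in advance. The passenger strands miR-375* and miR-551b* were detected on none of the 6 arrays.

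The miR-200 family and the miR-183 cluster, which mark epithelia, and in the case of the miR-183 cluster also sensory cells, were near the floor in thalamus. The miR-200 family consists of miR-200b, miR-200a and miR-429 from one cluster and of miR-200c and miR-141 from another, and it represses the transcription factors Zeb1 and Zeb2. miR-200b read 1219, 1576 and 1635 in pituitary gland and 3.87, 10.6 and 15.3 in thalamus, and miR-200a read 981, 1274 and 1148 in pituitary gland and 0.86, 8.92 and 14.9 in thalamus. All thalamus values of these 2 miRNAs were below detection, so that they were at least 124-fold and at least 102-fold higher in pituitary gland. Such a bound is the ratio of means taken on the log2 scale, without the floor: that of the brighter organ over that of, per array of the dimmer organ, the higher of the lowest signal detected there and the miRNA's own signal.

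miR-429 read 737, 832 and 846 in pituitary gland and 2.63, 7.45 and 13.6 in thalamus, and was at least 76.8-fold higher in the gland (adjusted p = 1.9e-08). miR-141 read 797, 857 and 952 in pituitary gland and 1.10, 2.83 and 1.06 in thalamus, for a bound of at least 91.4-fold (adjusted p = 1.6e-08). For miR-200c the design holds 2 entries, one of them with the suffix v15.0. The probes without the suffix read 423, 449 and 451 in pituitary gland and were below background in all thalami (at least 46.5-fold higher), and those of the v15.0 entry read 4039.6, 4309.7 and 5002 in pituitary gland and 3.69, 15.1 and 6.35 in thalamus (adjusted p = 1.3e-08). Both entries gave the same direction. As the v15.0 entry was detected on 1 thalamus array, the size of its difference depends on the floor. Of the 10 entries of the family on the array, 2 of them for the same arm of miR-200c, 6 were tested. All 6 were called higher in pituitary gland, beside 25.5% of all tested. All 6 passed the filter through the pituitary gland alone, which largely fixed that direction. The signals of the 10 entries summed to between 8210.0 and 10049.7 per pituitary array and to between 12.2 and 51.1 per thalamus array. Both entries of miR-200c are in these sums.

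From the miR-183 cluster, miR-96 read 277, 197 and 289 in pituitary gland and 4.07, 8.59 and 10.3 in thalamus, and miR-183 read 164, 101 and 172 in pituitary gland and 2.56, 5.83 and 6.83 in thalamus. Neither was detected in thalamus, and both were higher in the gland, by at least 26.0-fold and at least 15.0-fold. Both passed the filter through the pituitary gland alone, which largely fixed their direction. Of the 5 arms of the cluster on the array only these 2 were tested, and both were called, beside 25.5% of all tested. Rat 5 had the lowest pituitary signal of both. miR-182, the remaining member of the cluster, was detected on none of the 6 arrays, and its pituitary signals were 14.3, 11.1 and 13.4.

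Among the 12 largest pituitary differences, whose order depends on the floor, were also miR-224 and miR-152, from introns of Gabre and Copz2. The v15.0 entry of miR-224 read 199, 210.5 and 175 in pituitary gland and 3.56, 4.03 and 2.80 in thalamus (at least 20.5-fold higher, adjusted p = 1.3e-07). miR-152 read 202, 171 and 194 in pituitary gland and 13.1, 20.3 and 21.2 in thalamus, where no array detected it. It was called higher in pituitary gland (adjusted p = 3.1e-06). Its ratio of 10.6-fold is to undetected signals, so the size was not measured, and its 2 probe sequences gave differences of 1.00 and 3.31. miR-224_v15.0 and miR-152 passed the filter through the pituitary gland alone, which largely fixed their direction. miR-148b-3p, which has the seed of miR-152, was called in the same direction with a difference of 0.63, which was not called without rat 5 (rno-miR-148b-3p, adjusted p = 0.091). Outside the rule for named miRNAs, miR-335, from an intron of the imprinted gene Mest, was chosen after its values were seen. It read 2108, 2480.5 and 2181 in pituitary gland and 433, 431 and 382 in thalamus, a difference of 2.44 ± 0.14 (SE, n = 3, adjusted p = 2.8e-06).

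In the plot of signals by array, the 3 arrays of each organ lie close together for these miRNAs and apart from those of the other organ. The miRNAs plotted were picked for a lack of overlap, so their separation was fixed by that choice.

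**Figure D2:**
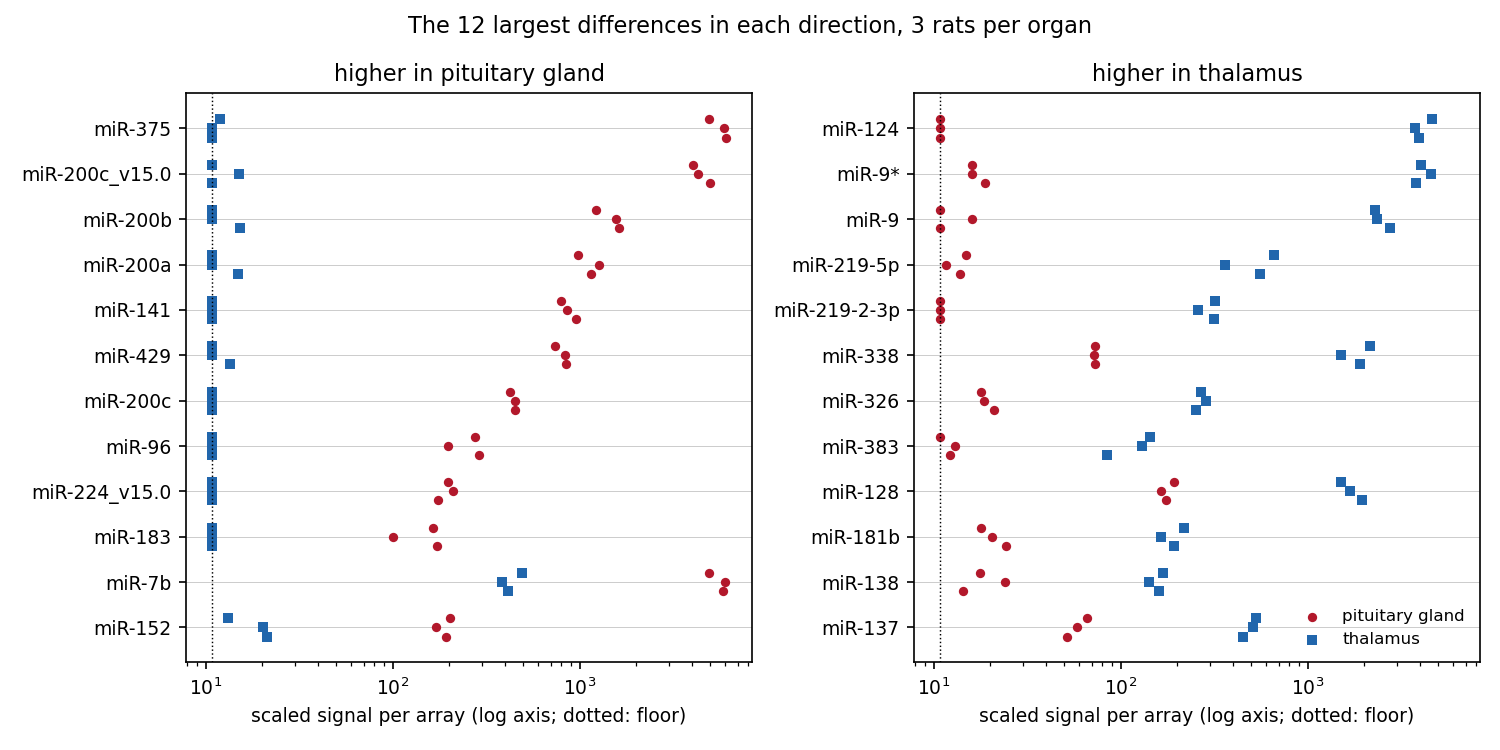
Scaled signal on each of the 6 arrays (log axis) for the 12 miRNAs with the largest differences in each direction among those called without overlap of the organs. Red circles are pituitary glands and blue squares thalami, with rats 4, 5 and 6 from top to bottom in each row; values below the floor of 10.8 (dotted line) are drawn on it, as for all thalami of miR-141, miR-200c, miR-96, miR-224_v15.0 and miR-183.

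Neuronal miRNAs were high in thalamus, with exceptions. miR-124, the most widely used miRNA marker of neurons, read 4625, 3765 and 3953 in thalamus and 3.30, 4.63 and 2.09 in pituitary gland, where it was detected on no array. It was at least 569.9-fold higher in thalamus (adjusted p = 7.6e-09). miR-9 and miR-9* are the arms of a hairpin of neural progenitors and neurons. miR-9 read 2282, 2339 and 2768 in thalamus and 10.71, 16.0 and 9.71 in pituitary gland, a difference of -7.64 ± 0.18 (SE, n = 3, adjusted p = 2.3e-08). miR-9* read 4025, 4558 and 3805 in thalamus and 16.1, 16.0 and 18.9 in pituitary gland, a difference of -7.93 ± 0.15 (SE, n = 3, adjusted p = 1.3e-08). Both arms had the same direction, and miR-9* was detected on all 3 pituitary arrays at a low level. As miR-9 was detected on 2 of the 3, the size of its difference depends on the floor.

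Differences of about 3 log2 units followed. miR-128, which is enriched in neurons and also high in thymus, read 1511, 1684 and 1949 in thalamus and 192, 165.03 and 175 in pituitary gland, with a difference of -3.27 ± 0.15 (SE, n = 3, adjusted p = 1.2e-06). miR-137, a regulator of neuronal maturation, read 532, 509 and 451 in thalamus and 66.5, 58.6 and 52.0 in pituitary gland, with a difference of -3.08 ± 0.13 (SE, n = 3, adjusted p = 7.1e-07). miR-138, which acts on dendritic spines, read 168, 141 and 159.8 in thalamus and 17.6, 24.2 and 14.4 in pituitary gland, with a difference of -3.09 ± 0.20 (SE, n = 3, adjusted p = 5.1e-06). No array of one organ reached into the range of the other for these. miR-383 read 144, 130.5 and 84.6 in thalamus and 10.5, 13.0 and 12.2 in pituitary gland, where it was detected on 2 of the 3 arrays. Its v15.0 entry was detected on 1 pituitary array and was also called higher in thalamus, at a difference whose size the floor sets, and the call was lost with a floor of 4 times the size (rno-miR-383_v15.0, adjusted p = 0.053).

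The pituitary gland was not without neuronal miRNAs. miR-129-2* read 511, 481 and 457 there and 2142, 2227 and 1833 in thalamus, and miR-129-1* read 345, 404 and 333 in pituitary gland and 1167, 1241 and 1322 in thalamus. The differences of these 2 arms were -2.09 and -1.79, while that of miR-129, the opposite arm of both hairpins, was -0.98. miR-218 differed by -2.17, with 109.9, 127 and 121 in pituitary gland and 563, 603 and 453 in thalamus. The thalamus was also higher for miR-153 (-0.94) and for miR-384-5p (-0.51, adjusted p = 0.013). The call of miR-384-5p was lost without rat 4 (adjusted p = 0.058), without rat 5 (adjusted p = 0.23) and under 3 of the 4 other scalings.

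The activity-regulated pair miR-132 and miR-212, which share a seed and a locus, was not called. miR-132 read 575, 656 and 573 in pituitary gland and 549.6, 480.5 and 417 in thalamus, with a difference of 0.32 ± 0.15 (SE, n = 3, adjusted p = 0.092). Under each of the 4 other scalings and without rat 4 it was called higher in pituitary gland, at differences of 0.40 to 0.63. miR-212 read 54.9, 74.6 and 57.7 in pituitary gland and 80.5, 66.9 and 56.6 in thalamus and its difference of -0.12 changed sign with the scaling. Of 29 neuronal entries on the array, 2 of them for the same arm of miR-383, 16 were tested. Of these, 14 were called higher in thalamus, 0 higher in pituitary gland and 2 neither. Their median difference was -2.46, beside -0.18 over all tested, and the 14 of 16 stand beside the 40.6% of all miRNAs called in that direction. miR-124, miR-9, miR-138 and both entries of miR-383 passed the filter through the thalamus alone, which largely fixed their direction, and 9 of the 11 members detected on all 6 arrays were called higher in thalamus. The signals of the whole list summed to between 2504 and 2702 per pituitary array and between 18334 and 19118 per thalamus array.

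All 3 tested members of the myelin list were called higher in thalamus, beside 40.6% of all tested. Both miR-219 arms passed the filter through the thalamus alone, so their direction was largely fixed by it, and only miR-338 was detected on all 6 arrays. miR-219 and miR-338 promote the maturation of oligodendrocytes. miR-219-5p read 662, 362 and 557 in thalamus and 14.9, 11.7 and 13.8 in pituitary gland, with a difference of -5.26 ± 0.15 (SE, n = 3, adjusted p = 7.1e-08). miR-219-2-3p, the other arm of its hairpin, read 318, 258 and 315 in thalamus, was below background on all pituitary arrays and was at least 41.1-fold higher in thalamus. miR-338 read 2145, 1502 and 1915 in thalamus and 73.1, 72.2 and 72.7 in pituitary gland, with a difference of -4.66 ± 0.15 (SE, n = 3, adjusted p = 1.3e-07). In contrast to both miR-219 arms, it was detected on all 3 pituitary arrays, within a range of 72.2 to 73.1. In thalamus, all 3 were lowest in rat 5. miR-326, from an intron of Arrb1, belonged to no list and read 269.9, 287 and 252 in thalamus and 18.0, 18.7 and 21.0 in pituitary gland, with a difference of -3.81 ± 0.14 (SE, n = 3, adjusted p = 3.1e-07).

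Markers of other cell types that a dissected piece could hold were examined by list. miR-143 and miR-145 are neighbours that mark smooth muscle. miR-143 read 491, 1065 and 1608 in thalamus and 108, 126 and 117 in pituitary gland, and miR-145 read 20.4, 18.7 and 36.3 in thalamus and 0.66, 3.33 and -0.66 in pituitary gland. miR-143 differed by -3.01 ± 0.28 (SE, n = 3, adjusted p = 3.9e-05), and its thalamus values spread more than 3-fold with rat 4 lowest and rat 6 highest. For miR-145, which was detected on no pituitary array, the bound was at least 3.34-fold, and the call was lost with 2 of the 4 other scalings. It passed the filter through the thalamus alone, which largely fixed its direction. In this list of 8 arms, 2 of the 4 tested were called higher in thalamus, a share near the 40.6% of all tested, and miR-199a-3p was not called at 94.5, 102 and 95.3 in pituitary gland and 36.9, 79.7 and 96.6 in thalamus. Without rat 6, rno-miR-199a-3p was called higher in pituitary gland (adjusted p = 0.00055). With the percentile over miRNAs detected on the 6 arrays, 1 member of the list was called higher in pituitary gland and 1 higher in thalamus. With slide as a fixed block, 2 were called in each direction. The list summed to between 239 and 269 per pituitary array and between 565 and 1787 per thalamus array.

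miR-126 and miR-126* of endothelium were called higher in thalamus at differences of -0.54 and -0.73 (adjusted p = 0.0095 and 0.041), beside 40.6% of all tested. miR-126* was detected on 2 pituitary arrays and passed the filter through the thalamus alone, which largely fixed its direction. The pair summed to between 331 and 388 per pituitary array and between 467 and 551 per thalamus array. Neither call held with the percentile over all miRNAs of the design, with that over miRNAs detected on the 6 arrays or with the authors' table, and that of miR-126* was also lost with quantile normalization. Without rat 6 neither was called (adjusted p = 0.066 and 0.22). miR-126 was also not called without rat 5 (adjusted p = 0.15), nor was miR-126* without rat 4 (adjusted p = 0.12).

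Of the leukocyte list 2 of the 4 tested were called higher in thalamus, a share near the 40.6% of all tested. miR-150 passed the filter through the thalamus alone, which largely fixed its direction. Among the 3 members detected on all 6 arrays, 1 was called higher in thalamus. miR-150 of mature lymphocytes read 171, 183 and 184 in thalamus and 24.3, 19.9 and 21.7 in pituitary gland, with a difference of -3.03 ± 0.14 (SE, n = 3, adjusted p = 1.2e-06). miR-223 of granulocytes differed by -0.46 (adjusted p = 0.027), and the call was lost under all 4 other scalings, without rat 4 (adjusted p = 0.11) and without rat 5 (adjusted p = 0.28). miR-142-3p, which is expressed across leukocytes, was not called at 33.9, 47.1 and 48.6 in pituitary gland and 35.7, 56.4 and 61.4 in thalamus, nor was miR-146a at 81.0, 92.6 and 92.9 in pituitary gland and 56.7, 72.1 and 95.3 in thalamus. With the percentile over miRNAs detected on the 6 arrays, rno-miR-146a was called higher in pituitary gland (adjusted p = 0.048). The leukocyte list summed to between 184 and 227 per pituitary array and between 331 and 419 per thalamus array. The erythrocyte miRNA miR-451 was detected on 1 array of the 6, with signals of 7.00, 14.9 and 7.11 in pituitary gland and 2.85, 6.16 and 2.56 in thalamus. From the list of striated muscle 1 of 15 entries was tested, miR-133b. It was not called, at 29.2, 16.0 and 26.8 in pituitary gland and 22.1, 32.6 and 46.9 in thalamus. Without rat 4, rno-miR-133b was called higher in thalamus (adjusted p = 0.0061). No HOX-cluster miRNA was tested, and the highest of their signals on the 6 arrays was 16.1, of miR-10a-5p in the thalamus of rat 6. The part of other cell types in the differences above was not tested.

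miR-34b and miR-34c, of ciliated and choroid plexus cells, were higher in thalamus. miR-34c read 219, 140.3 and 109 in thalamus and 50.8, 29.3 and 47.5 in pituitary gland, with a difference of -1.85 ± 0.22 (SE, n = 3, adjusted p = 0.00017), with rat 4 highest in both organs. miR-34b differed by -1.56 and its v15.0 entry by -1.81. Of the 13 entries of this list 4 were tested. These 3 were called higher in thalamus, beside 40.6% of all tested, and 1 was not called. miR-211 and miR-449a were detected on none of the 6 arrays. Below detection, miR-449a read 4.15, 4.58 and 4.73 in pituitary gland and 2.20, 1.32 and 1.81 in thalamus. miR-204 of choroid plexus was not called at 1167, 877 and 1052 in pituitary gland and 837, 905 and 781 in thalamus. It was called higher in pituitary gland with the percentile over miRNAs detected on the 6 arrays and without the pituitary array of the non-uniform label (rno-miR-204, adjusted p = 0.025 and 0.032).

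The plot of differences by list sets these groups side by side, with the families that are described next.

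**Figure D3:**
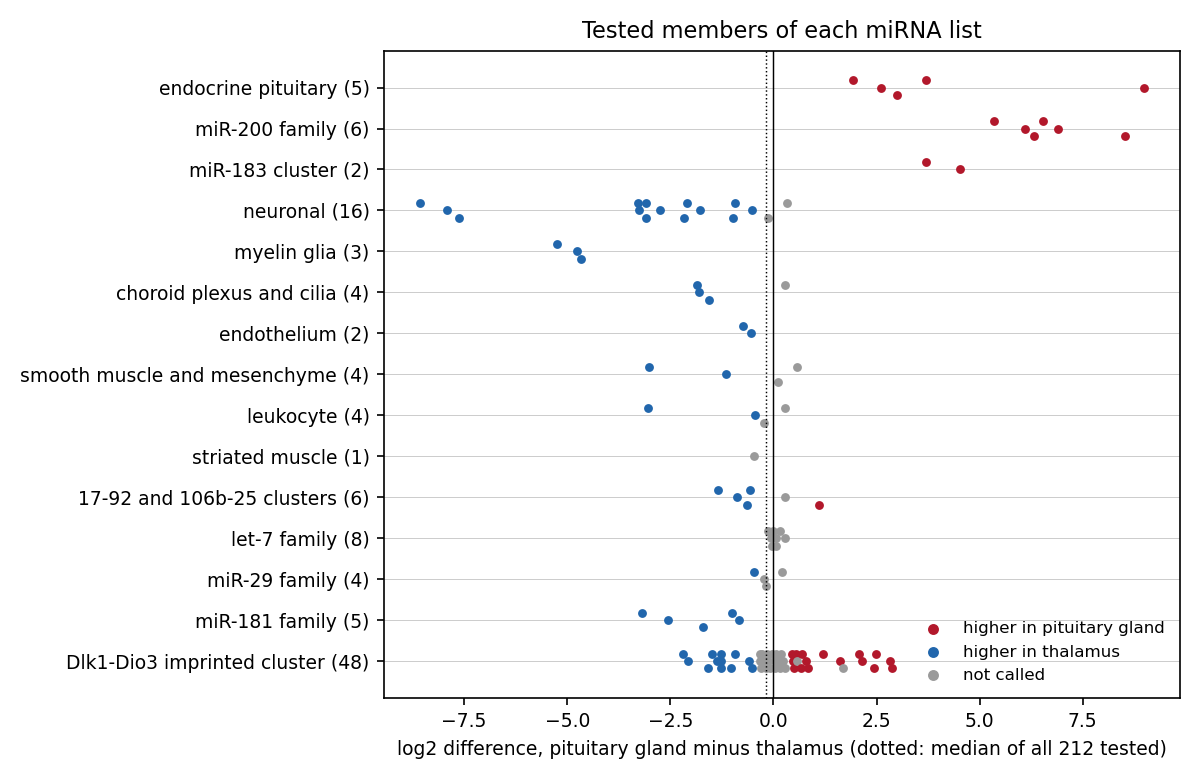
Log2 difference, pituitary gland minus thalamus, of the tested members of each miRNA list, with the number tested in brackets; each point is the mean of 3 rats. Red and blue points are called, grey points are not, and the dotted line is the median over all 212 tested (-0.18). The endocrine, miR-200 and miR-183 lists lie wholly to the right and the myelin and miR-181 lists wholly to the left. All tested miR-200 and miR-183 members passed the filter through the pituitary gland alone, which largely fixed their side.

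Families with a shared seed moved together or not, depending on the family. Among the miRNAs matched to a RefSeq sequence, 7 seed families had at least 3 tested members. Of these families, 5 had calls in the direction of the thalamus alone, 1 had calls in both directions and 1 had no call. Of all single miRNAs tested 40.6% were called toward the thalamus, which is not a share of families. In 2 of the 5, the call was of 1 member only, miR-384-5p or miR-29b, and those calls were lost under 5 and 4 of the alternatives. The miR-181 family, abundant in thymus and brain, was higher in thalamus for all 4 members of the seed ACAUUCA. miR-181a read 930.4, 755 and 799 in thalamus and 121, 131 and 173 in pituitary gland, with a difference of -2.56 ± 0.17 (SE, n = 3, adjusted p = 6.7e-06), and miR-181b read 218, 164 and 193 in thalamus and 18.0, 20.6 and 24.4 in pituitary gland, with a difference of -3.19 ± 0.17 (SE, n = 3, adjusted p = 2.1e-06). miR-181d and miR-181c, which come from another cluster, differed less, by -1.01 and -0.83. The passenger strand miR-181a-1* was detected in thalamus alone, at least 4.95-fold higher, and its call was lost with the percentile over all miRNAs of the design. The miR-34 seed (GGCAGUG) was called in all 3 of its members, miR-34a, miR-34b and miR-34c, at differences of -1.68, -1.56 and -1.85.

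The seed AGCAGCA of the miR-15 family was split. miR-15b and miR-16 were higher in pituitary gland, at differences of 1.78 and 0.92, miR-322 was higher in thalamus (-2.17), and the other 2 members were not called. miR-15b read 548, 537 and 578 in pituitary gland and 134, 171 and 184 in thalamus, without overlap. Split too was the seed AUUGCAC, with miR-25 higher in pituitary gland and miR-92a higher in thalamus. miR-25 read 159, 193 and 176 in pituitary gland and 79.6, 80.4 and 82.6 in thalamus, a difference of 1.12 ± 0.14 (SE, n = 3, adjusted p = 0.00022). miR-92a read 59.4, 62.9 and 58.9 in pituitary gland and 104, 112 and 119 in thalamus, a difference of -0.89 ± 0.14 (SE, n = 3, adjusted p = 0.00074). These miRNAs belong to the proliferation-linked clusters miR-106b-25 and miR-17-92. miR-93, which shares the Mcm7 intron with miR-25, was higher in thalamus (-0.57), and miR-106b of that intron was not called (0.28). The call of rno-miR-93 was lost with 3 of the other scalings and without rat 5 (adjusted p = 0.098). miR-20a of miR-17-92 differed by -1.34 ± 0.13 (SE, n = 3, adjusted p = 6e-05). Of the 6 tested members of both clusters, 1 was called higher in pituitary gland and 4 higher in thalamus, beside 25.5% and 40.6% of all tested. miR-93 passed the filter through the thalamus alone, which largely fixed its direction. Among the 5 members detected on all 6 arrays, 1 was called higher in pituitary gland and 3 higher in thalamus. The other scalings called 2 higher in pituitary gland and 2 to 4 higher in thalamus, and without rat 5 the thalamus calls fell to 2.

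The let-7 family, whose seed GAGGUAG is the most common among the miRNAs tested, was not called in any of its 8 tested members, where 66.0% of all tested were called. Their differences ran from -0.13 to 0.29 around a median of 0.03, and the percentile over all miRNAs called 2 of them higher in pituitary gland. let-7f read 5711, 6648 and 5751 in pituitary gland and 3961, 4976 and 6085 in thalamus, with overlap, and let-7b read 3412, 3076 and 3564 in pituitary gland and 2842, 3094 and 2991 in thalamus. let-7i read 1698, 1769 and 1705 in pituitary gland and 2118, 1845 and 1710.4 in thalamus. For the miR-29 family, which represses collagens, miR-29b read 5052, 5123 and 5142 in pituitary gland and 7690.1, 7024 and 6474 in thalamus and was called, with a difference of -0.46 ± 0.14 (SE, n = 3, adjusted p = 0.019). This call did not hold with the percentile over miRNAs detected on the 6 arrays, with the authors' table, without rat 4 or without rat 5 (adjusted p = 0.17, 0.36, 0.075 and 0.24 for rno-miR-29b). miR-29a and miR-29c were not called, at differences of -0.23 and 0.20. With quantile normalization rno-miR-29a was called higher in thalamus (adjusted p = 0.010), and with the 3 other scalings its sign turned without a call. rno-miR-29c was called higher in pituitary gland with those 3 scalings (adjusted p = 0.024 to 0.031).

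No hairpin had its arms called in opposite directions. Of 23 pairs of arms that were both tested, 12 were called in the same direction on both arms, 7 on 1 arm and 4 on none. miR-129 enters the pairs of both of its hairpins. Of all single miRNAs tested 66.0% were called, which is not a share of pairs, so the pair counts cannot be set against it. The arms of miR-9, miR-219-2, miR-337, miR-140 and miR-154 were called together. The largest gap within a pair was between miR-129 and miR-129-2* (-0.98 and -2.09). The difference between arms was not tested.

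The Dlk1-Dio3 cluster was divided between the organs. The miRNAs of this imprinted domain are expressed from the maternal chromosome and are known for their expression in brain. Of its 98 entries on the array 48 were tested. Of these, 16 were called higher in pituitary gland, 12 higher in thalamus and 20 neither, around a median of 0.06. The shares of 16 and 12 in 48 stand beside 25.5% and 40.6% of all tested. With the other scalings 18 to 20 were called higher in pituitary gland and 9 to 11 higher in thalamus. With slide as a fixed block the counts were 13 and 16, with detection on all 6 arrays 14 and 7 of 38 tested, with a floor of 4 times the size 12 and 7, and with normexp 11 and 7. Without rat 5 the pituitary calls fell to 10 and the thalamus calls to 10. Of the 12 thalamus calls, 5 passed the filter through the thalamus alone, and of the 16 pituitary calls 3 did so through the pituitary gland.

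miR-431 read 294, 316 and 288 in pituitary gland and 43.5, 45.0 and 34.4 in thalamus, with a difference of 2.88 ± 0.14 (SE, n = 3, adjusted p = 1.3e-06). miR-376c read 169, 178 and 170.0 in pituitary gland and 22.3, 26.1 and 24.8 in thalamus, with a difference of 2.82 ± 0.13 (SE, n = 3, adjusted p = 1.2e-06), and miR-337* read 95.8, 114 and 110.1 in pituitary gland and 17.6, 20.1 and 18.9 in thalamus, with a difference of 2.50 ± 0.13 (SE, n = 3, adjusted p = 2e-06). These were the 3 largest differences of the cluster, and the 3 rats gave the same sign for each. In the same cluster miR-758 read 150.4, 132 and 98.9 in thalamus and 26.7, 27.6 and 28.0 in pituitary gland, with a difference of -2.19 ± 0.17 (SE, n = 3, adjusted p = 1.4e-05), and miR-380* read 199, 156 and 131 in thalamus and 42.4, 40.9 and 32.3 in pituitary gland, with a difference of -2.06 ± 0.14 (SE, n = 3, adjusted p = 6.7e-06). miR-758 and miR-380* were chosen after their values were seen, as the largest in the opposite direction.

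Neighbours along the chromosome differed. In the RefSeq order of the 41 members that could be placed, miR-337 and miR-431 (higher in pituitary gland) are followed by miR-433* (higher in thalamus), and miR-299 (2.44) by miR-380*, miR-323 and miR-758 (all higher in thalamus). miR-127, which lies close to miR-433, was not called at 2048, 1854 and 2086 in pituitary gland and 2094, 1492 and 1422 in thalamus. Over the alternatives the difference of rno-miR-127 ran from 0.14 to 0.59. Its lowest adjusted p was 0.0096, so it was called higher in pituitary gland under at least 1 alternative.

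The plot of the cluster in chromosome order shows that members called in opposite directions are interspersed.

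**Figure D4:**
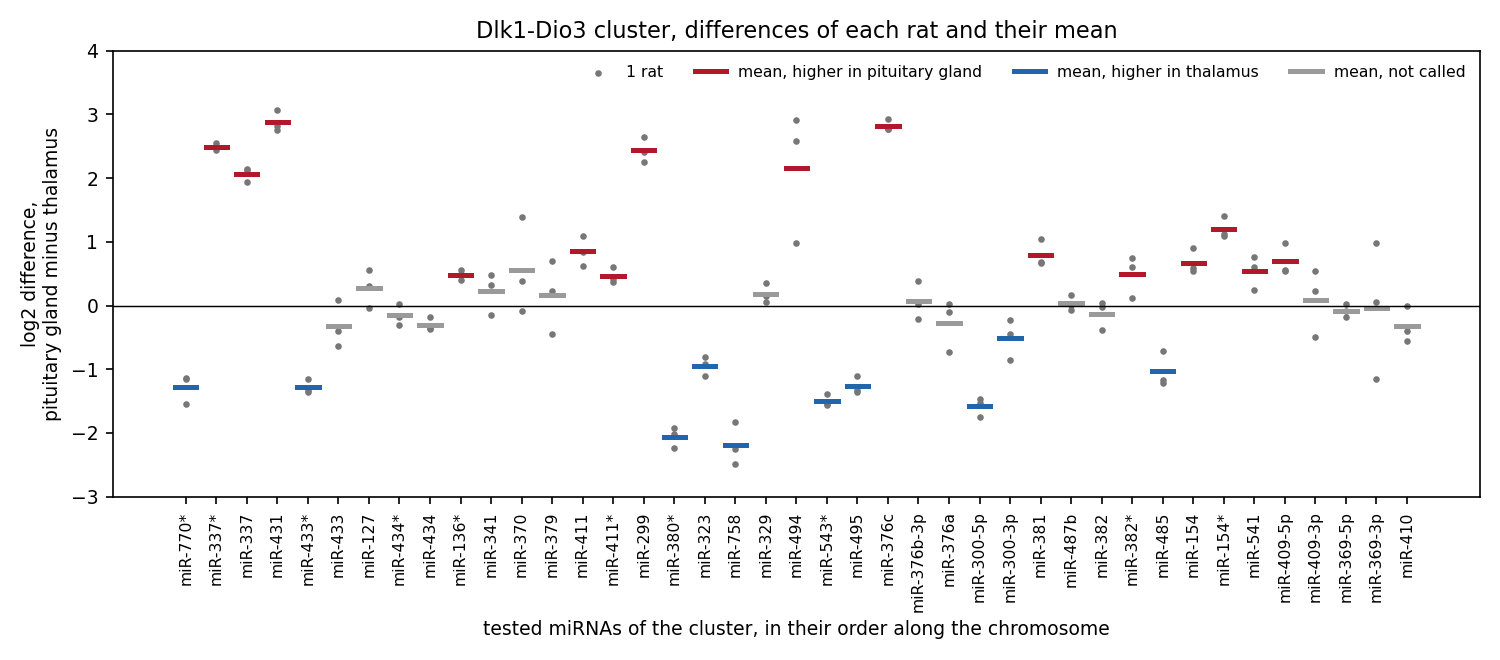
Log2 difference, pituitary gland minus thalamus, of the 41 tested Dlk1-Dio3 miRNAs that could be placed, in their order along the chromosome. Grey points are the 3 rats and bars their mean, red if called higher in pituitary gland, blue if called higher in thalamus and grey if not called; miR-431 (2.88) and miR-758 (-2.19) are the extremes.

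The levels of both tissues were also set beside those of all organs of the perfused rats. The 3 pancreas arrays stand apart, since 86 to 108 miRNAs were detected on them and their scaling factors were 17.5 to 31.1 (median over all arrays of perfused rats 1.19). Ranks are therefore given over the 54 other organs, a choice made after seeing the data, and the levels are a description with no test. The pituitary gland ranked first for 32 of the 212 miRNAs tested and the thalamus for 41. The 212 were tested because they were detected in 1 of these organs, so these counts were partly fixed by the filter. For the Dlk1-Dio3 members, the pituitary gland ranked first for 20 and the thalamus for 22 of the 48.

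miR-7a was highest in pituitary gland at 21840.1 ± 1193 (mean ± SD, n = 3 rats, here and below), second in thalamus at 2763 ± 480.4 and next in testicle at 619 ± 57.2. miR-7b followed the same order, with 5581 ± 556, 431 ± 54.4 and then 94.0 ± 24.2 in hippocampus. The thalamus thus stood between the pituitary gland and all other organs for both, beyond the spread of the rats. miR-551b was first in pituitary gland at 1515 ± 105, followed by cerebral cortex at 637 ± 97.3, hippocampus at 457 ± 102 and thalamus at 402 ± 48.0, where hippocampus and thalamus did not differ beyond their spread. miR-335 was first in pituitary gland at 2256 ± 197 and second in thyroid at 496 ± 34.3.

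miR-375 was first in pituitary gland at 5659 ± 614 and second in parotid gland at 1181 ± 115. The pancreas read 5873 ± 451, with scaling factors of 17.5 to 31.1 against 0.655 to 1.26 for the pituitary arrays. The spread of the rats does not cover this gap in scaling, so these organs were not ranked against each other. The 6 tested entries of the miR-200 family ranked between 7 and 18 of 54 in pituitary gland. miR-200b was at rank 17 at 1476 ± 225, below 10010.3 ± 2289 in duodenum. miR-96 and miR-183 were led by the eyeball, at 8569 ± 126 and 3794 ± 499, against 254 ± 50.0 and 146 ± 39.1 in pituitary gland. miR-224_v15.0 was first in pituitary gland at 195 ± 18.0, with skin next at 126 ± 20.4.

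Of the miRNAs of the thalamus, miR-137 was first there at 497 ± 41.9, but cerebral cortex at 458 ± 99.8 lay within the spread. miR-326 was first at 269.6 ± 17.9, above the medulla oblongata at 193 ± 17.6. miR-124 was at rank 5 there at 4114 ± 452, with the cerebellum at 11001 ± 1964 and the eyeball at 10533 ± 954. For miR-9 the thalamus was at rank 4 at 2463 ± 266, below cerebral cortex at 3849 ± 835. The myelin miRNAs were led by the spinal cord, and miR-219-5p read 1379.8 ± 89.6 in its pectoral part against 527 ± 152 in thalamus.

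At the other end, miR-143 was lowest of the 54 organs in pituitary gland, at 117 ± 9.37, and highest in the anterior stomach at 25213 ± 3345. miR-150 read 22.0 ± 2.22 in pituitary gland, rank 53 of 54, and 4899 ± 482 in mesenteric lymph node. miR-181b, at 21.0 ± 3.24, was at rank 48 of 54 in pituitary gland.

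The plot of levels by organ places both tissues among all others for 10 miRNAs.

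**Figure D5:**
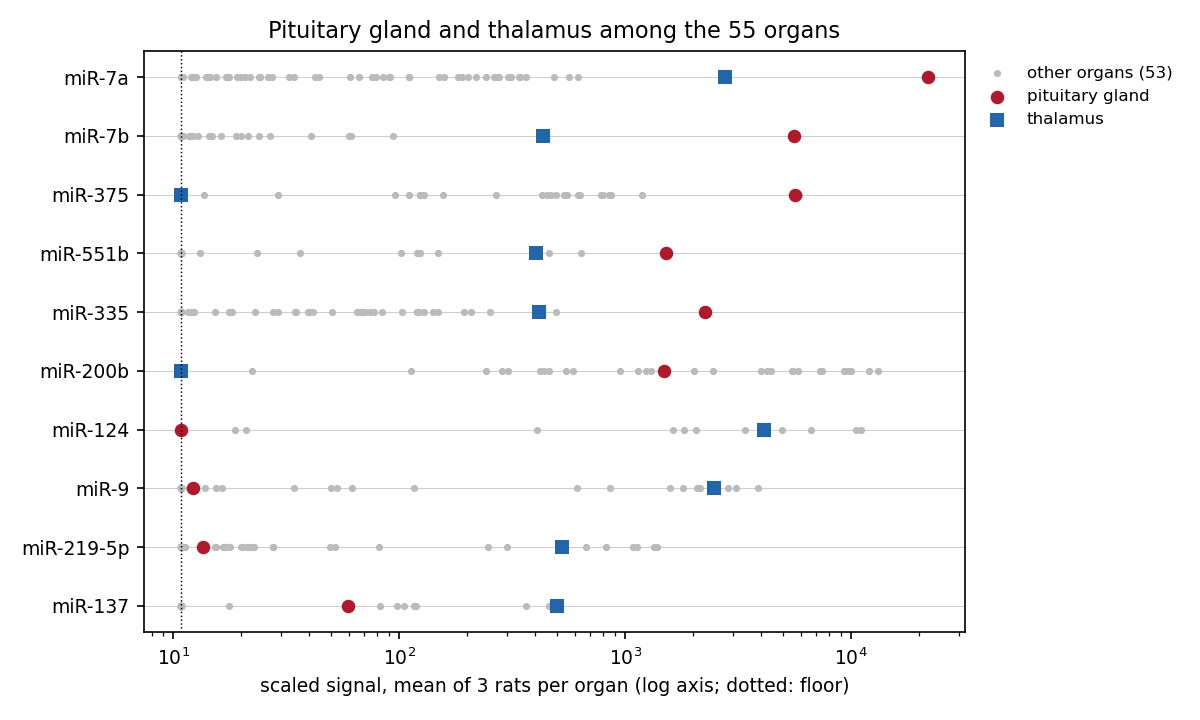
Mean scaled signal of 3 rats in each of the 55 organs, pancreas included (log axis), for 10 miRNAs; red circles are the pituitary gland, blue squares the thalamus and grey points the other 53 organs, with values below the floor (dotted line) drawn on it. The pituitary gland and the thalamus are the highest organs for miR-7a and miR-7b, whereas miR-124 and miR-9 are at or near the floor in pituitary gland.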

How the data were processed

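miRNA was measured with 1-color Agilent miRNA arrays, 1 array of total RNA per organ and rat. The authors deposited for each array the spot table of Agilent Feature Extraction (version 10.7.3 in the submitters' processing notes), whose background-corrected signal intensity was used, and 1 table of normalized signal intensities for the series, used as an alternative (2 miRNAs tested here are not in the table used). Of 14340 miRNA spots per array, 20 per miRNA, outlier spots were left out (1.63 to 3.72% on the 6 arrays). The rest were averaged per probe sequence and then per miRNA. Detection on an array required more than 50% of a miRNA's spots to be flagged as well above background. Scaling set the 75th percentile of 37 miRNAs, those found on each of the 180 arrays, to 2118 on every array (factors 0.655 to 1.33 on the 6 arrays). Signals below 10.8, the floor, were set to it, and log2 was taken. The floor affects differences of miRNAs near background. For those detected on no array of an organ a bound is given. Where the undetected signals lay above the lowest detected ones, the ratio to them is given instead. No column was left without a sample.

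Differences were fitted with limma 3.58.1 (R 4.3.3) with rat as a block, moderated by eBayes, and p-values were adjusted by Benjamini-Hochberg over the 212 miRNAs tested. The pairing comes from the animal numbers of the labels, as both organs of a number are from the same rat; deviations from the organ means correlated at -0.08, 0.099 and -0.11 within rats 4, 5 and 6. The arrays lie on several slides and the scans span 2 days, with both arrays of a rat on the same day. Named were the 12 largest differences in each direction among miRNAs called without overlap of the organs, and members of the lists of cell types and families; the script was tested on simulated data. Members and lists were chosen with earlier results of these data known. Alternatives changed the scaling, floor, background correction, summary, filter, block, slide and moderation, and left out each rat in turn. Some further miRNAs were named after their values were seen (miR-335, miR-758, miR-380* and those cited within a family, hairpin or cluster). Ranks among organs used all arrays of perfused rats (55 organs, 3 rats each).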

Additional observations from a re-analysis of the deposited data

How the results depend on the processing

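Over 21 alternatives, no called miRNA took the opposite sign as a call. Against 54 miRNAs called higher in pituitary gland and 86 higher in thalamus, the fit without the replicate block gave 54 and 88, and without the pituitary array of the non-uniform label it gave 50 and 84. The scalings gave 68 and 61 (all miRNAs of the design), 70 and 71 (the 6 arrays), 63 and 62 (the authors' table) and 62 and 77 (quantile, which moved the median by 0.11). A floor of 4 times the size gave 41 and 65. Normexp on the median signal, chosen after seeing the data in place of a planned mean signal not used here, gave 38 and 65. Restricting the test to the 163 miRNAs detected on all 6 arrays gave 34 and 63. Leaving out each rat in turn gave 40 to 53 and 66 to 86, lowest without rat 5. Fits over all 55 organs, slide as a fixed or random block included, gave 52 to 54 and 81 to 86. rno-miR-7a differed by 2.14 to 3.30.

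Among the miRNAs named here, signs turned only for some not called in the paired fit. With the percentile over all miRNAs, the percentile over the 6 arrays and the authors' table, rno-let-7i was 0.18, 0.12 and 0.18, rno-miR-212 was 0.18, 0.12 and 0.18, rno-miR-29a was 0.074, 0.012 and 0.075, and rno-miR-142-3p was 0.083, 0.021 and 0.084. Leaving out each rat in turn moved rno-miR-212 from -0.26 to 0.092 and rno-miR-1224 from -0.11 to 1.61. With quantile normalization rno-let-7b was -0.25 and rno-miR-29c -0.041, and with slide as a fixed block rno-miR-133b was 0.036. The cause was not tested. Calls were also lost for miR-126 under 8 alternatives, miR-126* under 13, miR-223 under 12, miR-384-5p under 5, miR-26a, miR-26b and miR-93 under 6, miR-29b and miR-145 under 4, miR-181a-1* under 3, miR-148b-3p under 2 and miR-383_v15.0, miR-181c, miR-433* and miR-494 under 1 each. The number of arrays and, for dim miRNAs, the distance to background limit the precision.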

Other observations

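The pituitary gland of rat 6 stood apart from those of rats 4 and 5 for a few miRNAs, chosen here after their values were seen. miR-1224 read 99.8, 117 and 860.4 in the pituitary glands of rats 4, 5 and 6 and 142, 95.5 and 113 in their thalami, and was not called (adjusted p = 0.197). The difference of rno-miR-1224 was 0.90, and it was -0.11 without rat 6. Over the alternatives its difference reached 1.61 and its adjusted p fell to 0.00085, so it was called under at least 1 of them. miR-494_v15.0 read 76.3, 97.2 and 577 in pituitary gland and 101, 28.5 and 43.7 in thalamus, with a difference of 1.70 that was not called (adjusted p = 0.050). The rats differed in sign, as the pituitary signal of rat 4 lay below its thalamus signal. When any 1 rat was left out, rno-miR-494_v15.0 was called higher in pituitary gland, at 0.68 without rat 6 and 2.74 without rat 4. Such fits rest on fewer rats and borrow variance from other miRNAs, so these calls do not show that the rats agree. The probes of miR-494 read 116, 140.1 and 266 in pituitary gland and 58.7, 23.4 and 35.1 in thalamus and were called higher in pituitary gland. Their ratio of 4.47-fold is to thalamus signals that no array detected, so the size was not measured. miR-494 passed the filter through the pituitary gland alone, which largely fixed its direction. The pituitary array of rat 6 detected 190 miRNAs, against 229 and 244 on the other pituitary arrays, and had 3.72% of outlier spots, the highest share of the 6 arrays. The part of these values in the difference of miR-1224 was not tested.

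miR-26a and miR-26b, which share the seed UCAAGUA, were called in opposite directions. miR-26a read 1734, 2118 and 2084 in pituitary gland and 3078, 2695 and 2979.9 in thalamus, with a difference of -0.56 ± 0.15 (SE, n = 3, adjusted p = 0.012), and miR-26b read 1058, 1262 and 1071 in pituitary gland and 662, 739 and 978 in thalamus, with a difference of 0.53 ± 0.17 (SE, n = 3, adjusted p = 0.026). Neither call held without rat 4 (adjusted p = 0.061 for rno-miR-26a and 0.12 for rno-miR-26b) or without rat 5 (adjusted p = 0.083 and 0.32), and that of miR-26a was lost with 3 of the other scalings and that of miR-26b with 1. The difference between them was not tested.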
